A study of Homo sapiens with 9 samples.

Results

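Expression of 10 genes of the S100 family (S100A2, S100A4, S100A6, S100A7, S100A8, S100A9, S100A10, S100A11, S100A14 and S100A16) was described in CAL27 cells, an established line of tongue squamous carcinoma. The 10 genes were taken by name from the 78894 Ensembl identifiers of the deposited tables, and all 10 had a value in every library. The 10 were chosen by name with their TPM in these same libraries already known and with no stated threshold, so their own values are given as a description and without p-values. The main fit across all genes includes them, and its counts of members called are printed beside the share of all genes called. For other settings that share is not given, and nothing is read from the counts of members there. The other 11 genes of the family are those that this choice left, so it fixed their set too. They are given with limma tests, which are read as a description.

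The samples fell into 4 groups: 3 of Control, and 2 each of A2ko, A8ko and C9ko. All were CAL27 cells grown in DMEM with 10% fetal bovine serum and no treatment. The series, which concerns an enhancer active in squamous cancers of the head and neck, is described as RNA-seq of cells edited with CRISPR. The A2ko, A8ko and C9ko samples are labelled knockout, the library names of the Control samples begin with WT, and whether the Control cells went through an editing step is not stated. The labels name no edited sequence in any group, so no targeted gene could be checked. Nor do they state whether a group was grown from 1 clone or from pooled cells, so clone and edit cannot be told apart. PolyA RNA was sequenced, and the values are TPM, shares of the library scaled by transcript length, which can be compared between genes. Both A2ko files held the same 78894 values, as did both A8ko files, and the header of both files in a pair names the library labelled B, so each such pair stands for a single library. The 7 distinct libraries were 3 of Control, 2 of C9ko, and 1 each of A2ko and A8ko.

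S100 proteins are small calcium sensors that mostly work as dimers and change shape when calcium binds, which lets them grip partner proteins such as annexins and myosin. Most of their genes lie in a stretch of chromosome 1 that also holds genes of the cornified envelope, the protein shell of mature squamous cells. S100A8 and S100A9 together form calprotectin, which withholds zinc and manganese from microbes and signals to receptors on other cells. In the epidermis, calprotectin and S100A7 (psoriasin) are known for being low at rest and high in wounded or inflamed skin.

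Depth cannot be read from TPM, so no counting interval is given. Between 15556 and 16716 genes reached 1 TPM per library. Mitochondrial transcripts took 23.1% to 26.9% of the Control libraries, 25.2% of A2ko, 20.6% of A8ko and 17.9% to 20.2% of C9ko, and their part in the differences below was not tested beyond a repeat without those transcripts. Differences are on the log2(TPM + 1) scale, group mean minus Control mean, which understates changes of weak genes. Over the 17100 tested genes the median difference was 0.12 for A2ko, 0.09 for A8ko and 0.11 for C9ko, and it was 0.00, 0.00 and -0.01 when libraries were scaled by the median of ratios. Nothing in the labels says that samples of a group came from separate cultures, so the spread may be technical. The 3 comparisons share the same Control libraries, so their values are set side by side and not counted as independent of each other.

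In Control cells the 10 members spanned from 19.7 to 1296 TPM. S100A11 stood highest at 1296 ± 52.1 TPM (SD, n = 3), followed by S100A6 at 991.9 ± 30.9, S100A10 at 872.8 ± 30.8 and S100A2 at 774.3 ± 42.5. S100A9 came next at 491.5 ± 21.7 TPM, then S100A16 at 376.5 ± 44.7, S100A14 at 287.2 ± 15.8 and S100A8 at 229.1 ± 23.8. S100A7 at 26.2 ± 4.82 TPM and S100A4 at 19.7 ± 0.410 TPM were the lowest. The 3 Control libraries of each gene did not overlap those of its neighbour in this order.

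**Figure D1:**
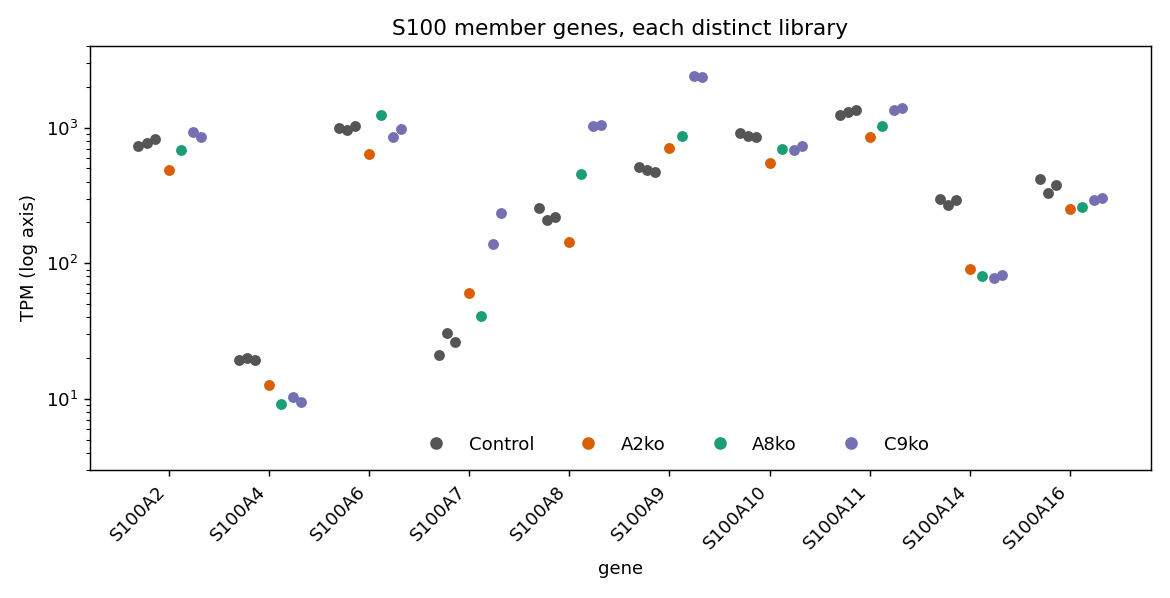
TPM of the 10 S100 genes (log axis) in each of the 7 distinct libraries, with 1 point per library and colours for Control, A2ko, A8ko and C9ko. S100A7, S100A8 and S100A9 are highest in both C9ko libraries, and every knockout library of S100A14 lies under 100 TPM while the 3 Control libraries lie between 269.3 and 299.1 TPM.

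S100A9, S100A8 and S100A7 were the members with the largest differences in C9ko. S100A9, the larger calprotectin subunit, had 514.6, 488.2 and 471.6 TPM in the Control libraries, 712.5 TPM in A2ko, 870.9 TPM in A8ko, and 2406 and 2349 TPM in C9ko. All 4 knockout libraries were above all Control libraries, and in C9ko the level was 4.84-fold higher. The log2 difference was 0.54 for A2ko, 0.82 for A8ko and 2.27 (SE 0.07) for C9ko. Among all tested genes ordered by level, S100A9 held ranks 216 to 233 in Control and ranks 29 and 31 in C9ko, where it was the most abundant member.

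S100A8, the partner subunit, had 255.8, 210.3 and 221.2 TPM in Control, 143.4 TPM in A2ko, 457.6 TPM in A8ko, and 1025 and 1051 TPM in C9ko. A8ko and C9ko lay above all Control libraries, and A2ko lay below all of them. The level was 4.53-fold higher in C9ko and 2.00-fold higher in A8ko, and 1.60-fold lower in A2ko, with log2 differences of 2.18 (SE 0.09), 0.9998 and -0.67. A2ko therefore held more S100A9 and less S100A8 than Control.

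The ratio of S100A8 to S100A9 TPM put numbers on this. It was 0.497, 0.431 and 0.469 in Control, 0.525 in A8ko, and 0.426 and 0.447 in C9ko. In A2ko it was 0.201, below every other library. In A8ko and C9ko both transcripts were higher than in Control at a ratio near that of Control, whereas in A2ko the pair was unequal. With 1 A2ko library, no replicate stands behind that value.

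**Figure D2:**
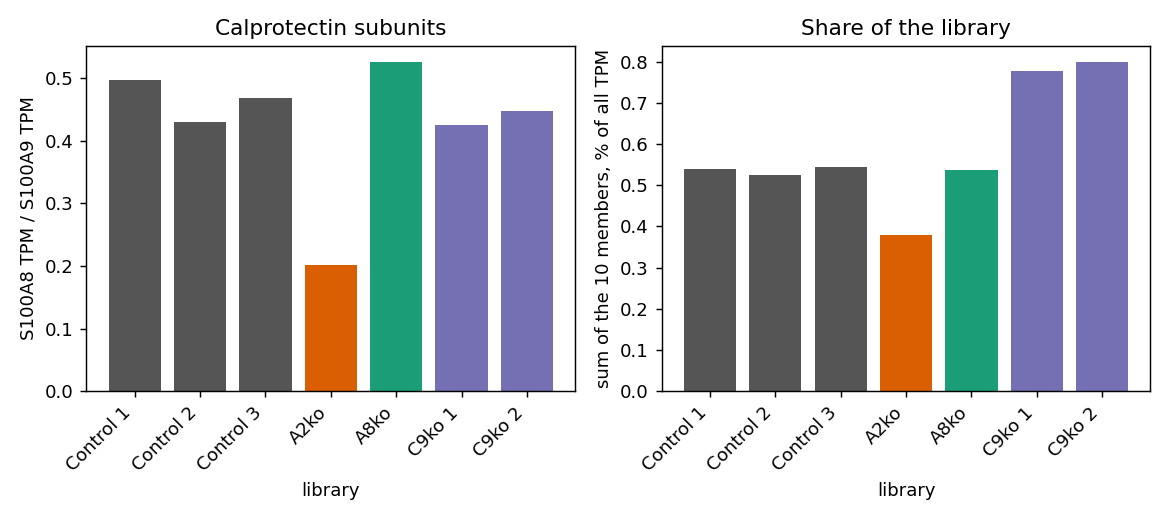
Ratio of S100A8 to S100A9 TPM (left) and sum of the 10 members as a percentage of all TPM (right), with 1 bar per distinct library. The A2ko bar is the lowest in both panels, at 0.201 and 0.380%, and both C9ko bars are the highest on the right, at 0.777% and 0.799%.

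S100A7, known as psoriasin and as a killer of Escherichia coli on skin, had 21.2, 30.9 and 26.4 TPM in Control, 60.9 TPM in A2ko, 41.3 TPM in A8ko, and 139.6 and 234.3 TPM in C9ko. Every knockout library was above every Control library. The level was 2.33-fold higher in A2ko, 1.58-fold higher in A8ko and 7.15-fold higher in C9ko, with log2 differences of 1.20, 0.65 and 2.76 (SE 0.23). Both C9ko libraries differed from each other more for S100A7 than for S100A8 or S100A9. S100A7 has a near copy, S100A7A, whose longest coding transcript matched it at 406 of 424 aligned bases (95.8%) with an exact run of up to 84 bases. How reads were split between these copies is not given in the sources used here, so their separate levels are uncertain.

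The DNA before the first listed RefSeq start of these genes is shown for the members that were highest in C9ko, for the near copy of S100A7, and for S100A14, the member that was lowest against Control in all 3 knockouts. Sequences are from RefSeq on GRCh38.p14, 5′ to 3′ on the gene's strand, and hold up to 250 bases before the first listed RefSeq start, less the bases that GENCODE release 29 places in an exon of the gene (50 for S100A7 and 30 for S100A14). The windows are chr1:153357604-153357853 on the plus strand for S100A9, chr1:153391189-153391438 on the minus strand for S100A8, chr1:153460702-153460901 on the minus strand for S100A7, chr1:153416270-153416519 on the plus strand for S100A7A and chr1:153616356-153616575 on the minus strand for S100A14. These starts are not always the outermost start of the gene in GENCODE: the S100A14 window lies wholly inside that gene, 411 bases past its GENCODE start. The same holds for 6 of the 10 members whose windows were searched for motifs (S100A2, S100A4, S100A6, S100A10, S100A11 and S100A14), by 10653 bases for S100A11. Capitals mark an exact TATAAA; that of S100A7 lies in the bases left out and is not shown.
S100A9: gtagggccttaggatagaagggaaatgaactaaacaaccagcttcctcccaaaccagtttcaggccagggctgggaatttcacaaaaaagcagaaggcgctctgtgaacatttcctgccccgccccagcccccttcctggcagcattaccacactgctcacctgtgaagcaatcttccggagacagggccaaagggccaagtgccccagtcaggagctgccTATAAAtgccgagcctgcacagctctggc
S100A8: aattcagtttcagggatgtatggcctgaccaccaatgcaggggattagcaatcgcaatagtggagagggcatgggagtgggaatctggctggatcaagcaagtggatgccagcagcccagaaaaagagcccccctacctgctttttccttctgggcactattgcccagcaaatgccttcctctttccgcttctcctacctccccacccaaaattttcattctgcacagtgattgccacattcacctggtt
S100A7: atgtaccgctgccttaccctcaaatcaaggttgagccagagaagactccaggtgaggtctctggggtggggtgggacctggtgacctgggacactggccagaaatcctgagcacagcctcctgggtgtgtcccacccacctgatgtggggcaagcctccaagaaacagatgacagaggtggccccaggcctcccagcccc
S100A7A: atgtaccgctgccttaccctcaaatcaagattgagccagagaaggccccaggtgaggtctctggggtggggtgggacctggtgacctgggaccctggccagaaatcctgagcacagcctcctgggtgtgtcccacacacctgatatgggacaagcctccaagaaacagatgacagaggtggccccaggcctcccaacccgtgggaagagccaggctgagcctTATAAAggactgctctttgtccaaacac
S100A14: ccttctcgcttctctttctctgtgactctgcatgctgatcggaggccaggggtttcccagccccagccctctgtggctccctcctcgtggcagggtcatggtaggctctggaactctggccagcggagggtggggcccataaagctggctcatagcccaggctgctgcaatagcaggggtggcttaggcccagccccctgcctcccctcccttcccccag

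The whole windows of S100A7 and S100A7A matched at 241 of 250 bases (96.4%). In 250 bases before the start, TATAAA was found in S100A9 (29 to 24 bases before it), in S100A7 and in S100A7A (both 28 to 23 bases before), but not in S100A8 or S100A14. Over both strands, 3 of 10 members held it (S100A4, S100A7 and S100A9), against 11.1% of the 27305 promoters in the table. The AP-1 motif TGANTCA was in 1 of 10 members (S100A2, 52 to 46 bases before the start) against 6.6% of promoters. The C/EBP motif TTGCNNAA was in 1 member, S100A11, against 9.13%, and the NF-kB motif (GGG and TTCC with any 3 bases between) in 1 member, S100A6, against 5.61%. None of these matches overlapped another. A match describes letters in this window and says nothing of binding.

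S100A14 and S100A4 were lower in all 3 knockouts. S100A14, an epithelial S100 protein found at cell borders, had 299.1, 269.3 and 293.1 TPM in Control, 91.3 TPM in A2ko, 80.7 TPM in A8ko, and 77.4 and 82.5 TPM in C9ko. The 4 knockout libraries lay close together and far below the 3 Control libraries. The level was 3.15-fold lower in A2ko, 3.56-fold lower in A8ko and 3.59-fold lower in C9ko, with log2 differences of -1.64, -1.82 and -1.83 (SE 0.07). Its rank among tested genes was 392 to 432 in Control and 1515 to 1996 in the knockouts.

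S100A4, which binds the heavy chain of non-muscle myosin and is known from motile cells, had 19.55, 20.17 and 19.40 TPM in Control, 12.7 TPM in A2ko, 9.16 TPM in A8ko, and 10.3 and 9.52 TPM in C9ko. All knockout libraries were below all Control libraries. The log2 difference was -0.60 for A2ko, -1.03 for A8ko and -0.93 (SE 0.07) for C9ko. In GENCODE release 29 the S100A4 model overlaps that of S100A3 on the same strand, so reads from the shared part could count for either.

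The annexin-linked pair, S100A10 and S100A11, were both lower in A2ko and A8ko. S100A10, which binds annexin A2 at the inner face of the plasma membrane and there recruits plasminogen, had 906.9, 864.5 and 847.1 TPM in Control, 550.6 TPM in A2ko, 696.1 TPM in A8ko, and 685.8 and 730.4 TPM in C9ko. Every knockout library was below every Control library, with log2 differences of -0.66, -0.33 and -0.30 (SE 0.07). ANXA2, the gene of annexin A2, was chosen after its values were seen. It had 1618 ± 54.1 TPM in Control (SD, n = 3), 1754 TPM in A2ko, 1219 TPM in A8ko, and 1677 and 1676 TPM in C9ko. The ratio of S100A10 to ANXA2 TPM was 0.509 to 0.556 in Control, 0.314 for A2ko, 0.571 for A8ko, and 0.409 and 0.436 for C9ko. It was thus below the Control range in A2ko and C9ko and just above it in A8ko, where both transcripts were low.

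S100A11, which binds annexin A1 and helps in membrane repair, had 1239, 1308 and 1341 TPM in Control, 850.5 TPM in A2ko, 1035 TPM in A8ko, and 1359 and 1403 TPM in C9ko. A2ko and A8ko lay below the Control range, and C9ko lay just above it. The log2 differences were -0.61, -0.32 and 0.09 (SE 0.07), and the last turned to -0.04 when libraries were scaled by the median of ratios. An antisense gene overlaps S100A11, and another overlaps S100A6; the use of strand in counting is not given in the sources used here.

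S100A2, S100A6 and S100A16 made up the rest. S100A2, a nuclear S100 protein of basal squamous cells, had 734.4, 769.4 and 819.0 TPM in Control, 484.8 TPM in A2ko, 684.0 TPM in A8ko, and 924.9 and 851.1 TPM in C9ko. It was below the Control range in A2ko and A8ko and above it in C9ko, with log2 differences of -0.67, -0.18 and 0.20 (SE 0.08). TP63, the gene of the basal squamous transcription factor p63, was the gene most like S100A2 over the 7 libraries (Pearson r = 0.983 among 10955 genes with a mean of at least 5 TPM). An unnamed identifier (0.9826) and RAB7B (0.981) were almost as close. As the highest of 10955 correlations over 7 points that share groups, the value describes likeness and is not tested.

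S100A6, or calcyclin, a calcium sensor of dividing cells, had 988.4, 962.8 and 1024 TPM in Control, 638.0 TPM in A2ko, 1247 TPM in A8ko, and 853.6 and 973.1 TPM in C9ko. It was the only member whose C9ko libraries overlapped the Control range, and A2ko and A8ko lay on opposite sides of it. S100A16, a widely expressed member with 420.5, 331.2 and 377.7 TPM in Control, had 251.2 TPM in A2ko, 258.4 TPM in A8ko, and 292.9 and 302.1 TPM in C9ko. All of its knockout libraries lay below Control, with log2 differences of -0.57, -0.53 and -0.33 (SE 0.10).

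Counted over the 10 members, 6 were called in C9ko by limma at an adjusted p under 0.05, against 29.5% of all tested genes: S100A7, S100A8 and S100A9 higher, against 22% of genes, and S100A4, S100A10 and S100A14 lower, against 7.42%. Since the members were chosen with these values known, the choice itself can fix such counts, and nothing is read from these or from the counts in the rest of this paragraph. After scaling by the median of ratios the same test called 8 members, 3 higher and 5 lower. The share of all genes called after this scaling is not given here. With the 3 knockout group means held against Control, S100A4 and S100A14 were called (2 of 10), both lower, against 1.03% of genes in all and 0.52% lower. The call of S100A4 was lost when any 1 Control library was left out, and without A8ko or without C9ko. It was also lost with no filter and without mitochondrial transcripts. A2ko had 2 members (S100A7 higher, S100A14 lower) outside the Control range by at least 1 log2 unit, against 5.07% of genes (3.54% higher and 1.53% lower), and A8ko had 2 (S100A4 and S100A14, both lower), against 4.73% in all and 2.68% lower; S100A8 in A8ko lay just under that limit.

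By position alone, 8 members were below and 2 above all Control libraries in A2ko, 6 below and 4 above in A8ko, and 4 below and 5 above in C9ko. Of all tested genes, 76.7% (50.4% above and 26.3% below) did not overlap Control in A2ko, 73.3% (46.9% and 26.4%) in A8ko, and 57.5% (41.1% and 16.4%) in C9ko. Every knockout library was above Control for S100A7 and S100A9 (17% of genes) and below it for S100A4, S100A10, S100A14 and S100A16 (4.61% of genes). The members' median difference was -0.62 for A2ko, -0.25 for A8ko and -0.01 for C9ko. Together the 10 genes took 0.525% to 0.544% of all TPM in Control, 0.538% in A8ko, 0.380% in A2ko, and 0.777% and 0.799% in C9ko. The 8 members other than S100A8 and S100A9 summed to 4556 to 4748 TPM in Control, 2940 TPM in A2ko, 4052 TPM in A8ko, and 4343 and 4586 TPM in C9ko. The higher share of C9ko thus lay in S100A8 and S100A9, and the lower share of A2ko in the other members.

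Among the other 11 S100 genes, 7 passed the filter of 1 TPM in at least 2 libraries, and 4 of them were called in C9ko, 2 higher and 2 lower, against 29.5% of all tested genes (22% higher and 7.42% lower). S100A7A and S100A12 rose, and S100P and S100A3 fell. S100A7A, the near copy of S100A7, rose in C9ko by 2.38 log2 units, with SE 0.13 and an adjusted p of 4.8e-05 from limma. It went from 1.54, 1.03 and 1.28 TPM in Control to 10.8 and 10.9 TPM, with 2.60 TPM in A2ko and 2.86 TPM in A8ko. How reads were split between S100A7 and S100A7A is not given, so this rise may not be separate from that of S100A7. S100A12, or calgranulin C, lies between S100A9 and S100A8 and is known from neutrophils. Its rise in C9ko was of 2.12 log2 units, with SE 0.23 and a limma adjusted p of 0.000819. It went from 1.16, 1.09 and 2.49 TPM in Control to 10.2 and 9.65 TPM. A8ko, at 3.77 TPM, lay above the Control range, and A2ko, at 0.385 TPM, lay below it, the same sides as for S100A8.

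S100P, a ligand of the receptor RAGE that lies on chromosome 4, fell in C9ko from 3.75, 6.03 and 5.85 TPM to 0.426 and 0.890 TPM (log2 difference -1.90, SE 0.22; limma adjusted p = 0.00108). It stood at 1.44 TPM in A2ko and 0.173 TPM in A8ko, both below every Control library. It was the only other S100 gene called with all knockouts against Control (-1.87, SE 0.30; limma adjusted p = 0.0470), and that call was lost when any 1 Control library was left out (adjusted p from 0.186 to 0.271). S100A3, known from hair cuticle, fell in C9ko by 0.36 log2 units, from 20.2, 22.6 and 22.2 to 18.2 and 15.2 TPM (SE 0.10; limma adjusted p = 0.0325). That call was lost without Control 2 (adjusted p = 0.0918), without Control 3 (adjusted p = 0.0922) or without C9ko 2 (adjusted p = 0.171).

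S100A13 had 126.3 ± 14.1 TPM in Control (SD, n = 3) and a C9ko difference of 0.02 (SE 0.10; limma adjusted p = 0.898), and its A2ko and A8ko values were 105.6 and 111.5 TPM. S100A1, with a Control mean of 1.94 TPM, and S100A5, with 1.07 TPM, did not pass the test in C9ko. S100B, S100G and S100A7L2 were listed at 0 in all 7 libraries, and S100Z did not exceed 0.10 TPM.

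**Figure D3:**
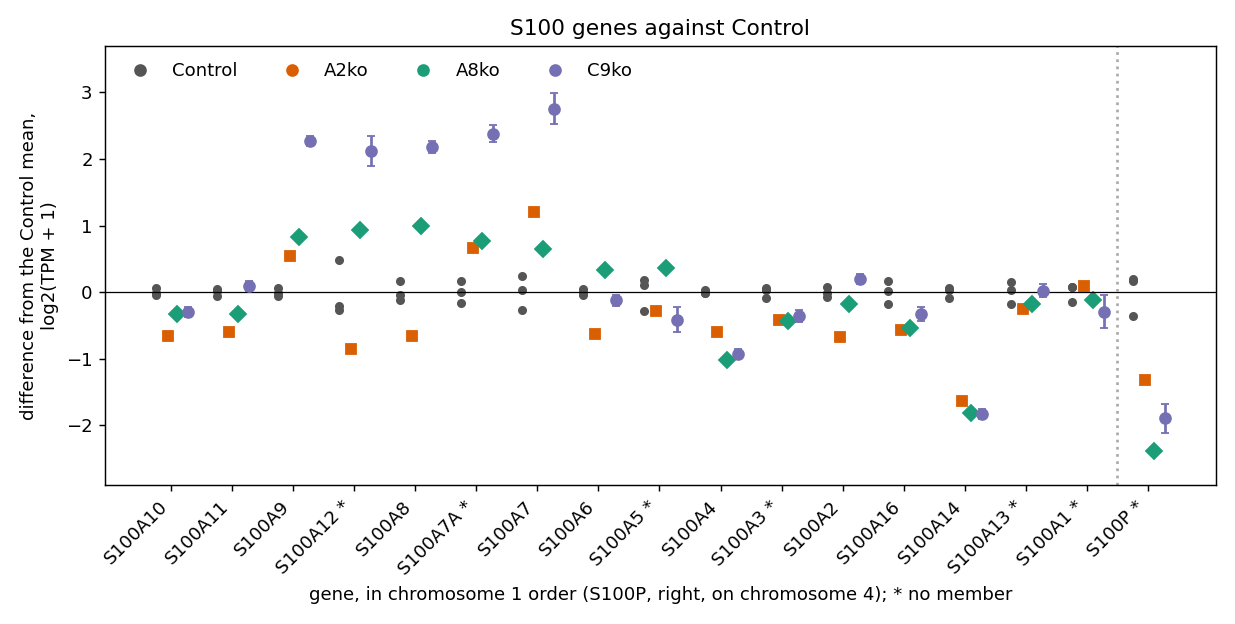
Difference from the Control mean on the log2(TPM + 1) scale for the tested S100 genes, in chromosome 1 order with S100P at the right; grey points are the 3 Control libraries, squares A2ko, diamonds A8ko, and circles C9ko with its SE, and stars mark genes outside the 10 members. S100A9, S100A12, S100A8, S100A7A and S100A7 stand side by side with the highest C9ko values, from 2.12 to 2.76, and S100A14 and S100P are low in all 3 knockouts.

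Along chromosome 1 (GRCh38, GENCODE release 29) the genes fell into 3 blocks. S100A10 (151982915 to 151994390) and S100A11 (152032506 to 152047907) stand apart at 1 end. S100A9 (153357854 to 153361027), S100A12, S100A8 (153390032 to 153391188), S100A7A and S100A7 (153457744 to 153460701) follow each other with no other tested S100 gene between them. These 5 neighbours had the 5 highest C9ko differences of the 17 tested S100 genes. Reads of S100A7 and its near copy S100A7A may have been split, so the values of these genes may not be separate. In the third block, from S100A6 (153534599 to 153536244) through S100A5, S100A4 (153543613 to 153550136), S100A3, S100A2 (153561108 to 153567890), S100A16 (153606886 to 153613145), S100A14 (153614255 to 153616986) and S100A13 to S100A1, C9ko differences ran from -1.83 to 0.20. In A2ko the same 5 genes split, with S100A9 (0.54), S100A7A (0.66) and S100A7 (1.20) above the Control mean and S100A12 (-0.86) and S100A8 (-0.67) below it. In the last block S100A2 (0.20) and S100A13 (0.02) were above the Control mean in C9ko. The difference of S100A2 was 0.07 after scaling by the median of ratios. The other genes of that block were below the Control mean, from S100A6 (-0.12) to S100A14 (-1.83).

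The stretch also holds 12 tested genes that are not S100 genes, and 9 of them were called in C9ko, 7 lower and 2 higher, against 7.42% and 22% of all tested genes. The lower ones were IVL and 5 SPRR genes, which code for parts of the cornified envelope, and PGLYRP3, a peptidoglycan-binding protein; the higher ones were SPRR3 and PGLYRP4, the latter call being lost without C9ko 1 (limma adjusted p = 0.0589). SPRR1B, at 221.2 ± 6.81 TPM in Control (SD, n = 3), fell to 53.9 and 51.7 TPM in C9ko (limma adjusted p = 8.3e-06), with 3.83 TPM in A2ko and 19.8 TPM in A8ko. SPRR1A fell from 125.5 ± 4.44 TPM to 49.5 and 49.7 TPM in C9ko (limma adjusted p = 3.4e-05), with 1.003 TPM in A2ko and 31.1 TPM in A8ko. Both stood lower in A2ko than in any other library. SPRR2E, SPRR2D and IVL were below Control in every knockout library, and SPRR2E fell in C9ko by 2.00 log2 units. SPRR3 rose in C9ko by 1.53 log2 units and PGLYRP3 fell by 1.44. SPRR2A fell by 0.67 log2 units, a call lost without C9ko 1 (limma adjusted p = 0.0711), and the SPRR2 genes are close copies whose reads may be split. The medians of the 12 genes were -0.95, -0.89 and -0.97 in A2ko, A8ko and C9ko. The high S100A7 to S100A9 block of C9ko therefore lay beside cornified envelope genes that were mostly lower. None of the 7 genes whose protein begins with an S100 domain, such as FLG and HRNR, reached the filter.

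Of 28 S100 partners and receptors, 25 were tested and 11 were called in C9ko, 8 higher and 3 lower, against 22% and 7.42% of all tested genes. After scaling by the median of ratios 12 were called, 6 higher and 6 lower, and the share of all genes called after that scaling is not given here. RAGE (AGER), the receptor shared by several S100 proteins, had a Control mean of 2.85 TPM and was not called, and TLR4, a calprotectin receptor, did not exceed 0.63 TPM. MCAM, an adhesion molecule that binds S100A8 and S100A9, rose in C9ko from 3.77 ± 0.385 TPM (SD, n = 3) to 23.6 and 23.3 TPM (2.36 log2 units, SE 0.10; limma adjusted p = 2.1e-05), with 4.38 TPM in A2ko and 5.15 TPM in A8ko. PLAUR, the urokinase receptor, rose from 18.6 ± 1.22 TPM to 64.3 and 69.2 TPM in C9ko (limma adjusted p = 2.6e-05); A8ko had 50.3 TPM and A2ko 11.6 TPM. PLAU, urokinase itself, rose from 233.0 ± 15.9 TPM to 453.7 and 425.2 TPM (limma adjusted p = 0.00029), with 496.0 TPM in A8ko and 306.8 TPM in A2ko. In C9ko both genes of this plasminogen activation pair were thus higher while S100A10, the plasminogen-recruiting member, was lower.

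FABP5, a fatty acid carrier that binds S100A7, fell from 159.3 ± 20.8 TPM (SD, n = 3) to 63.2 and 48.8 TPM in C9ko (limma adjusted p = 0.000437), with 64.1 TPM in A8ko and 98.6 TPM in A2ko. TRPV6, a calcium channel carried to the membrane by S100A10 and annexin A2, fell by 1.22 log2 units in C9ko (limma adjusted p = 0.00209), lay in A8ko at 0.651 TPM, between the 2 C9ko libraries, and was higher than Control in A2ko. ANXA6, an annexin, had 0.995 TPM in Control and 7.45 TPM in A2ko, the only library where it exceeded 1.26 TPM. Among genes chosen after their values were seen, MYH9, the myosin heavy chain bound by S100A4, rose in C9ko from 131.2 ± 6.34 to 205.6 and 195.3 TPM (limma adjusted p = 0.00086). CACYBP, a binding partner of S100A6, and ANXA1, that of S100A11, were not called; CACYBP was above Control in A8ko and below it in A2ko, the same sides as S100A6.

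Of 34 transcription factors and cytokines known to act on S100 genes of squamous epithelium, 33 were tested and 28 were called in C9ko, 20 higher and 8 lower, against 22% and 7.42% of all tested genes. IL6, an inflammatory cytokine, rose from 13.02 ± 0.978 TPM (SD, n = 3) to 109.7 and 121.5 TPM in C9ko (3.06 log2 units, SE 0.08; limma adjusted p = 7.1e-06), with 130.5 TPM in A8ko but 17.6 TPM in A2ko. TNF rose by 2.41 log2 units in C9ko, from 1.41 ± 0.244 TPM to 11.3 and 12.2 TPM, with 16.4 TPM in A8ko and 2.95 TPM in A2ko. IL17C, an epithelial cytokine that acts on keratinocytes, rose from 0.242 TPM to 4.06 and 3.56 TPM in C9ko (limma adjusted p = 0.000189), with 1.98 TPM in A2ko and 2.03 TPM in A8ko. IL6 and TNF, like S100A8, thus stood far higher in A8ko and C9ko than in A2ko. In A2ko, however, IL6 and TNF lay above every Control library and S100A8 below every one.

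The AP-1 genes did not move one way. FOSL1 rose in C9ko from 74.6 ± 2.61 TPM (SD, n = 3) to 182.4 and 183.4 TPM (limma adjusted p = 3.3e-05), with 256.1 TPM in A8ko and 38.9 TPM in A2ko. FOS fell from 145.2 ± 3.96 TPM to 25.6 and 26.3 TPM (limma adjusted p = 5.7e-06), with 59.1 TPM in A8ko and 244.2 TPM in A2ko. FOSL1 and FOS were therefore on opposite sides of Control in each knockout. ZNF750, a driver of late epidermal differentiation, fell from 14.2 ± 0.256 TPM to 4.69 and 4.31 TPM in C9ko (limma adjusted p = 6.1e-05) and stood at 1.46 TPM in A8ko and 8.82 TPM in A2ko. The C/EBP genes of the list, named after their values were seen, did not move one way either. CEBPB, a factor that binds the calprotectin genes, rose from 94.1 ± 9.23 TPM to 166.5 and 175.4 TPM in C9ko (limma adjusted p = 0.000688), with 160.5 TPM in A8ko and 97.2 TPM in A2ko. CEBPD rose in C9ko by 0.76 log2 units (limma adjusted p = 0.00394). CEBPA fell from 10.9 ± 1.04 TPM to 3.49 and 3.59 TPM (limma adjusted p = 0.000156), and lay below Control in A2ko (8.79 TPM) and A8ko (7.61 TPM) too.

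IL1A and IL20RB were far lower in A2ko than in the other groups. IL1A, an alarm cytokine of keratinocytes, had 34.3 ± 2.70 TPM in Control (SD, n = 3), 4.297 TPM in A2ko and 135.3 TPM in A8ko, and rose to 53.9 and 60.0 TPM in C9ko (limma adjusted p = 0.00143). IL20RB, a receptor chain for cytokines that raise S100 expression in skin, had 103.3 TPM in Control and 10.2 TPM in A2ko, against 91.5 TPM in A8ko and 79.6 TPM in both C9ko libraries. Both genes were lowest in A2ko, the library with the least S100A8, but that is 1 library and a link was not tested. IL20RB was also called lower in C9ko (-0.37 log2 units, limma adjusted p = 0.00586), where S100A8 was highest. IL1B, named after its values were seen, had 94.3 to 107.2 TPM in Control. It lay above that range in A2ko (177.8 TPM), A8ko (292.9 TPM) and C9ko (176.3 and 194.8 TPM).

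**Figure D4:**
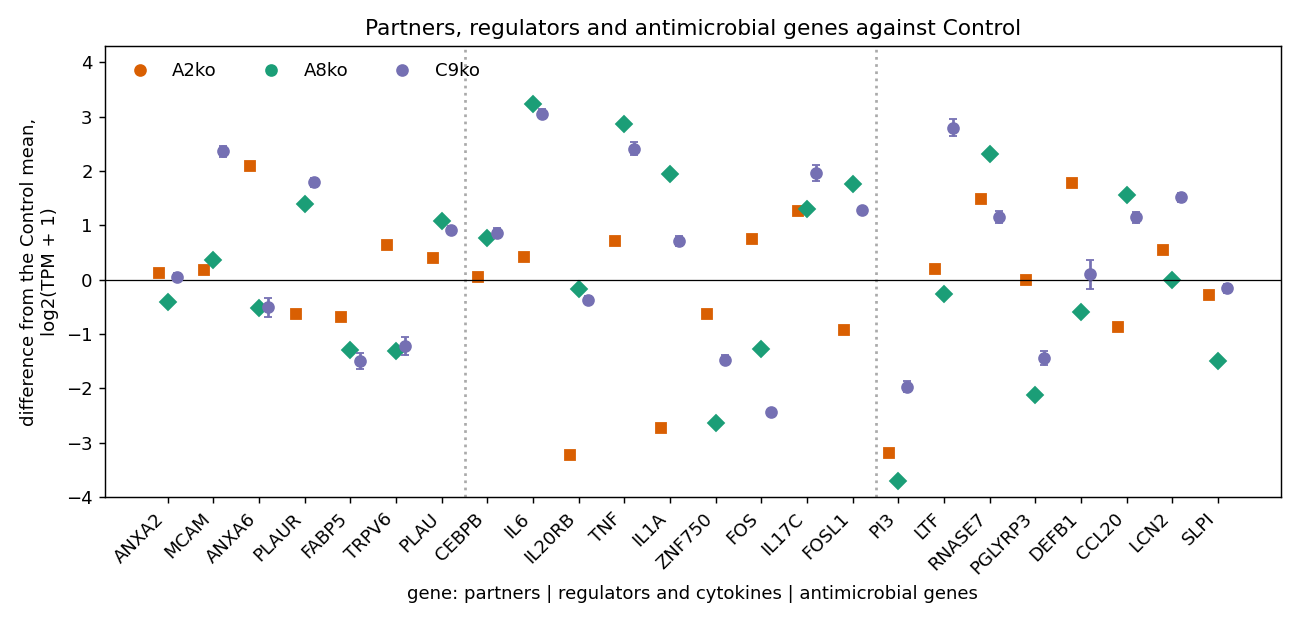
Difference from the Control mean on the log2(TPM + 1) scale for genes of the lists of partners, regulators and antimicrobial genes; squares are A2ko, diamonds A8ko, and circles C9ko with its SE. IL6 and TNF are high in A8ko and C9ko, and IL20RB and IL1A are low in A2ko; ANXA2 and CEBPB were added after their values were seen.

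Of 18 epithelial antimicrobial genes, which share a role with calprotectin and psoriasin, 9 were tested and 7 were called in C9ko, 5 higher and 2 lower, against 22% and 7.42% of all tested genes. LCN2, which withholds iron from bacteria, rose from 46.5 ± 3.74 TPM (SD, n = 3) to 132.3 and 136.2 TPM in C9ko (limma adjusted p = 4.7e-05), with 68.4 TPM in A2ko and 46.3 TPM in A8ko. LTF, lactoferrin, rose to 7.95 and 6.87 TPM in C9ko (limma adjusted p = 7.3e-05) and did not exceed 0.39 TPM elsewhere. RNASE7, a secreted antimicrobial ribonuclease, rose in C9ko by 1.15 log2 units, to 15.5 and 16.2 TPM from 6.64 TPM, and stood higher still in A2ko at 20.4 TPM and A8ko at 36.5 TPM. CCL20, a chemokine with antimicrobial activity, rose in C9ko by 1.15 log2 units. DEFB1, a beta-defensin, was not called, and its largest value was 4.16 TPM in A2ko.

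PI3, or elafin, a protease inhibitor, fell from 94.1 ± 5.00 TPM (SD, n = 3) to 25.9 and 21.0 TPM in C9ko (limma adjusted p = 4.0e-05), with 9.49 TPM in A2ko and 6.32 TPM in A8ko. SLPI, another protease inhibitor, had 85.9 TPM in A8ko against 243.6 TPM in Control and was not called in C9ko. The antimicrobial genes thus did not all go the way of S100A7, S100A8 and S100A9. With all knockouts against Control, 1 regulator (IL17C), 1 antimicrobial gene (PI3) and 2 neighbours (IVL and SPRR2E) were called, and each of the 4 calls was lost when any 1 Control library was left out.

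The genes closest in pattern over the 7 libraries were listed for the 4 members with the widest range. For S100A9 they were led by VHL (Pearson r = 0.999) and IL32 (0.998), and IL32, a cytokine, had 11.01 to 12.1 TPM in Control, 18.0 TPM in A2ko, 20.4 TPM in A8ko, and 76.4 and 77.1 TPM in C9ko. For S100A8 they were TMPO (0.998), INHBB (0.996) and FANCG (0.995), and for S100A7 CLMN (0.998), NFX1 (0.989) and an unnamed identifier (0.989). For S100A14 they were ACKR3 (0.996), P2RY2 (0.994) and TSC22D3 (0.994), and ACKR3, a scavenging chemokine receptor, had 80.5 to 90.6 TPM in Control and 24.8 to 31.2 TPM in the knockouts. These are the highest of 10955 correlations over 7 points that share groups, so they describe likeness and are not tested. Among the members themselves, S100A8 and S100A9 had r = 0.913, S100A7 and S100A9 0.951, S100A4 and S100A14 0.970, and S100A2 and S100A11 0.956.

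Markers were checked for other cells that could carry S100 RNA. All 8 squamous markers reached 1 TPM. Their summed level was 15539 to 16598 TPM in Control, 6039 TPM in A2ko, 6640 TPM in A8ko, and 9183 and 8931 TPM in C9ko. KRT5 and KRT14, keratins of basal cells, made up most of that sum, at 8917 and 3877 TPM in Control. Without them the other 6 summed to 3217 to 3425 TPM in Control, 2645 TPM in A2ko, 1536 TPM in A8ko, and 2473 and 2452 TPM in C9ko. Of the 8, 5 were called in C9ko, 1 higher and 4 lower, against 22% and 7.42% of all tested genes. KRT14 (-1.61 log2 units), KRT6A (-1.40), DSP (-0.98) and KRT5 (-0.74) were lower there, and lay below Control in every knockout library. CDH1, the epithelial cadherin, rose by 0.74 log2 units (limma adjusted p = 0.000249). KRT17 was above Control in A2ko and below it in A8ko, and KRT17, EPCAM and TP63 were not called in C9ko. With all knockouts against Control, KRT6A and DSP were called lower (limma adjusted p = 0.0276 and 0.0269), against 0.52% of genes.

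Of 10 myeloid markers, FCN1 and ELANE were at 0 in all libraries, and PTPRC did not exceed 0.0232 TPM and MPO 0.0292 TPM. CSF3R did not exceed 0.0438 TPM, SPI1 0.0633 TPM and FCGR3B 0.0806 TPM. CSF1R, which did not reach the filter, had 0.297 to 0.554 TPM in Control and 1.33 TPM in A2ko. It had 0.702 TPM in A8ko, and 0.418 and 0.393 TPM in C9ko. CD14 and ITGAM, the 2 that were tested, were both called higher in C9ko. CD14 was 15.7 ± 1.92 TPM in Control (SD, n = 3), 23.2 TPM in A2ko, 16.3 TPM in A8ko, and 52.5 and 50.8 TPM in C9ko (1.66 log2 units, SE 0.10; limma adjusted p = 8.4e-05). ITGAM was 0.389 to 0.753 TPM in Control, 0.743 TPM in A2ko, 0.979 TPM in A8ko, and 1.32 and 1.30 TPM in C9ko (limma adjusted p = 0.0443), a call lost without Control 1 (adjusted p = 0.0978), Control 2 (0.1003) or either C9ko library (0.144 and 0.147). The sum of the 10 was 15.1 to 19.0 TPM in Control, 25.4 TPM in A2ko, 18.0 TPM in A8ko, and 54.3 and 52.7 TPM in C9ko. Without CD14 it was 0.871 to 1.12 TPM in Control, 2.15 TPM in A2ko, 1.73 TPM in A8ko, and 1.81 and 1.85 TPM in C9ko. The part of these genes in the S100A8 and S100A9 differences was not tested. Fibroblast markers summed to 10.6 to 11.9 TPM in Control, 17.1 TPM in A2ko, 7.02 TPM in A8ko, and 10.9 and 11.8 TPM in C9ko. Melanocyte or Schwann markers summed to 2.44 to 2.94 TPM in Control, 6.78 TPM in A2ko, 3.93 TPM in A8ko, and 3.95 and 4.01 TPM in C9ko. In bulk RNA, fewer cells with a transcript and less of it per cell cannot be told apart. The part of the lower squamous marker sum in the S100 differences was not tested.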

How the data were processed

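Per the labels, polyA RNA from CAL27 cells was taken with TRIzol and made into dUTP libraries from 2 ug of total RNA. The authors deposited TPM per Ensembl gene; the build is hg38 per the submitters' processing notes, and aligner, quantifier, annotation and use of strand are not given in the sources used here. TPM keeps no depth. Symbols came from a table of identifiers (61463 of 78894 matched), positions from GENCODE release 29 and upstream sequences from RefSeq (GRCh38.p14), which held 19 of the 21 S100 genes.

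Groups were taken from the sample titles, and identical files were counted once. Genes with at least 1 TPM in at least 2 distinct libraries were tested on log2(TPM + 1) with limma 3.58.1 in R 4.3.3 (a fit of 4 groups, eBayes with trend, two-sided, Benjamini-Hochberg adjustment over 17100 genes, called under 0.05). For all knockouts together, 3 group means were held against 3 Control libraries. A2ko and A8ko, with 1 library each, have no test; values outside the Control range and at least 1 log2 unit from its mean were counted. The fits were tested on simulated data.

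The members, lists and tests were chosen with earlier results of these data known. Named genes are all S100 genes and, per list, at most 8 genes called in C9ko or outside the Control range in A2ko or A8ko, each by at least 1 log2 unit; for likeness, the 3 genes of highest Pearson r among those with a mean of at least 5 TPM, of which 1 is not reported here. ANXA1, ANXA2, MYH9, CACYBP, CEBPA, CEBPB, CEBPD, IL1B, TP63, AGER, TLR4, FLG, HRNR, PGLYRP4 and the cell type markers were named outside this rule. Alternatives changed the pseudocount, filter, scaling, handling of identical files, groups fitted, block and libraries.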

Additional observations from a re-analysis of the deposited data

Results flagged for a closer look

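For some genes of the S100 family, the lists and the markers named above, the libraries of 1 knockout lay above every Control library while those of another lay below every one. How many of all tested genes do so was not counted, so nothing is read from how many are listed here. Lying outside Control was common: 76.7% of all tested genes did so in A2ko, 73.3% in A8ko and 57.5% in C9ko. Genes named only for their likeness to a member were left out. The gap between the furthest knockouts, in log2(TPM + 1), is given for each, and the difference between knockouts was not tested, since A2ko and A8ko have 1 library each. Among S100 genes with A2ko below Control and A8ko and C9ko above, the gap was 2.85 for S100A8 and 2.98 for S100A12. S100A6 was above in A8ko and below in A2ko (0.97). S100A2 (0.87) and S100A11 (0.70) were above in C9ko and below in A2ko and A8ko, and S100A5 was above in A8ko and below in A2ko and C9ko (0.78). For S100A5 the A2ko value was 0.678 TPM against a lowest Control value of 0.686 TPM.

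Of the other genes, PLAUR (2.42), IL1A (4.69), FOSL1 (2.69), CCL20 (2.43), SPRR3 (2.27), CACYBP (0.80) and EPCAM (0.53) had the sides of S100A8. ANXA6 (2.61), TRPV6 (1.94), AGER (0.65) and FOS (3.19) had the opposite sides, above Control in A2ko and below it in A8ko and C9ko. LTF (3.07), PGLYRP4 (0.92) and ANXA2 (0.52) were above in A2ko and C9ko and below in A8ko. For ANXA2 the log2 differences of 0.12 in A2ko and 0.05 in C9ko did not keep their sign. Under the alternatives they went as low as -0.01 and -0.08. DEFB1 (2.37) and KRT17 (1.84) were above in A2ko and below in A8ko, and TP63 (0.67) was above in C9ko and below in A2ko and A8ko. LTF and DEFB1 had 0 TPM in A8ko, SPRR3 had 0 TPM in A2ko, and each of these had less than 1 TPM in every Control library. For LTF the A2ko value was 0.388 TPM against a highest Control value of 0.346 TPM.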

How the results depend on the processing

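Under the 13 alternatives for C9ko, 5 to 8 members were called against 6. Since the members were chosen with these values known, this says nothing of stability. The share of all tested genes called under each alternative is not given here, so the counts in this section have no background beside them. Of 30 differences between a member and Control in 1 knockout, 29 kept their sign, the exception being S100A11 in C9ko. With all knockouts together, 2 members were called; the count was 1 with no filter, 1 without mitochondrial transcripts, 4 without A2ko, 1 without A8ko, 1 without C9ko, 1 to 2 when 1 Control or C9ko library was left out, and 8 with the average of knockouts in the fit of 4 groups, which leaves the spread between knockouts out of the error. With genes of a mean of at least 5 TPM only, which leaves fewer genes, 1 other S100 gene was called against 4, and 3 neighbours on chromosome 1 against 9. With all files as separate libraries, which counts identical files as replicates, 18 partners were called against 11. With no filter, 2 of the genes fused to an S100 domain were called against 0 of 0 tested. With the replicate block, 5 members were called (S100A10 was lost), 3 other S100 genes, 8 partners, 25 regulators, 6 antimicrobial genes and 7 neighbours. Single values of CEBPA, CEBPD, IL1B, KRT6A and DSP were not followed under the alternatives. Among the other named genes the block ended the calls of S100A3, IL20RB, SPRR2A, PGLYRP4 and ITGAM. The labels give no shared batch behind the replicate numbers, and same-numbered Control and C9ko libraries did not deviate together (r = -0.0529 and -0.0124), so the numbers were not taken as pairs. For single genes, 2329 of the alternative values stayed on the same side of the threshold or within 1 SD, 64 lost a call, 80 gained one and 135 moved by more than 1 SD; the cause of these was not tested. A2ko and A8ko rest on 1 library each, and without counts the depth limit of the weak genes is unknown.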
